A study of Mus musculus with 3 samples.

Results

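Cells with Cxcl12 transcript were compared with cells without it inside the Cxcl12-creER P6 library, single cells from mandibular molars of mice at postnatal day 6. The genotype was Cxcl12-creER; R26R(tdTomato/+), in which a recombinase driven by Cxcl12 and active after tamoxifen switches on the red reporter tdTomato, and the cells were sorted for that reporter. A barcode was kept with at least 500 genes, at most 15% mitochondrial UMIs, at least 1000 UMIs (unique molecular identifiers, 1 per captured transcript) and Amelx plus Ambn, 2 enamel matrix genes, under 1000 per 10000 UMIs. Of 1691 barcodes in this library and 15912 in the series, 796 were kept. Cells with 2 or more Cxcl12 UMIs were called Cxcl12-positive (156 cells), and cells with 0 UMIs Cxcl12-negative (491 cells). The 149 cells with 1 UMI entered neither group. The 2 other libraries held GFP+ cells of Cxcl12-GFP/+ mice at day 6 (Cxcl12-GFP P6) and GFP+, tdTomato+ and doubly positive cells of Col1a1-GFP; Cxcl12-creER; R26R(tdTomato/+) mice at day 25 (P25), and serve only for values side by side. Each was 1 library, and neither the number of mice nor the time of tamoxifen is stated in the labels. The comparison is therefore between cells of a single library, without replicates and without a test. Ranges in parentheses after a level, share or fold are 95% limits for counting error alone, without the spread between mice. For levels and folds the spread between cells is also left out.

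CXCL12 is a chemokine secreted by stromal cells. It binds CXCR4 on blood-forming and immune cells, and ACKR3, which takes it up. In bone marrow it marks the stroma that holds blood stem cells. In the growing molar the mesenchyme forms the papilla, which becomes pulp and dentin-forming odontoblasts, and the follicle, which becomes ligament, cementum and socket bone.

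Cxcl12 lies on chromosome 6, 117168535 to 117181367, plus strand (GRCm38, ENSMUSG00000061353). The 250 bases before its start site are shown because the transcript chose the cells and because the gene also drives the recombinase by which they were sorted. The sequence is from RefSeq (GRCm38.p6, chr6:117168285-117168534, plus strand), 5′ to 3′, and capitals mark GGGCGG, the core of the GC box, on either strand.

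Cxcl12 promoter: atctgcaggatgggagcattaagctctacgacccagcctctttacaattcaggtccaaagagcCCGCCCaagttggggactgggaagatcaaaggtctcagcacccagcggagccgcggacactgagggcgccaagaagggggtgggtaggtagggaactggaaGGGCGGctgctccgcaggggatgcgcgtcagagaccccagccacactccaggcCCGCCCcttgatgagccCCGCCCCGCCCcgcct

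The window was 64.4% G or C. GGGCGG or its reverse complement CCGCCC began at 5 places, of which 2 overlap in the run nearest the start site. Of 32851 mouse promoter windows of the same length, 32.7% held at least 1 match. A match describes letters and shows no bound factor.

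A cell with more UMIs has more chances to show 2 of Cxcl12, and depth differed between the groups. Positive cells had a median of 5237.5 UMIs (1012 to 68080), cells with 1 UMI 1559 and negative cells 1507 (1000 to 77575). Summed, the positive cells held 2181740 UMIs and the negative cells 1956918. Positive cells made up 19.6% (16.9 to 22.5) of kept cells. By quartile of depth the share was 8.54%, 6.03%, 14.6% and 49.2%, while the summed Cxcl12 level was 380, 331, 409 and 205 CPM (UMIs of a gene scaled to a common total for each group of cells). The deepest cells thus held most positive cells at the lowest summed level. With every cell thinned to 1000 UMIs, at least 1 Cxcl12 UMI was left in 22.1% (19.3 to 25.2) of cells.

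At the threshold, 52 positive cells had exactly 2 UMIs and 149 cells just outside had 1. The median positive cell had 4, and the highest had 45, which was 4.58% of the 983 Cxcl12 UMIs of the group. The limit on enamel genes fell in a gap, since the highest kept cell had 119 per 10000 and the lowest left-out cell 1344. The 90 cells left out by it held 4 Cxcl12 UMIs in 1176806 and no cell with 2. The library shared 0 barcodes with Cxcl12-GFP P6 and 5 with P25.

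**Figure D1:**
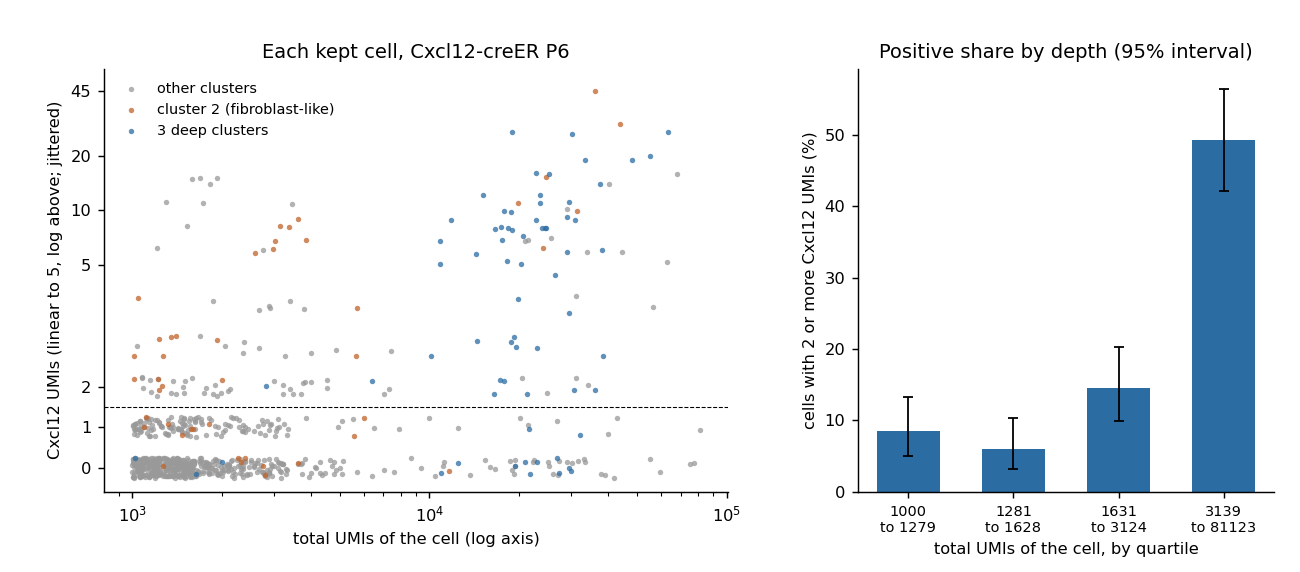
Left, each dot is a kept cell by its total UMIs and its Cxcl12 UMIs, orange for cluster 2, blue for the 3 deep clusters and grey for the rest, with the line between 1 and 2 UMIs dashed. Right, the share of positive cells by quartile of depth with exact 95% intervals, 49.2% in the deepest quartile against 6.03% to 14.6% in the others.

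The positive cells were found nearly entirely among mesenchymal cells. Cells were grouped by Leiden clustering with Cxcl12 and the reporter left out, and 23 of 30 clusters were counted as mesenchymal, with at least 2500 CPM of collagen transcripts and no epithelial, blood, glia, endothelial or skeletal muscle name. Mural cells of vessel walls were counted in. These clusters held 153 of 156 positive cells and 374 of 491 negative cells. The other 3 positive cells were a neutrophil-like cell with 44619 UMIs, a glia-like cell with 24818 and an endothelial-like cell. Of 28 dental epithelium-like cells, 0 had a Cxcl12 UMI, and the 3 counts that a count of 0 allows give up to 10.7% of cells with a UMI. At a median depth of 1401 UMIs this limits cells with a UMI, not cells that express the gene, and the summed level was at most 37.4 CPM. At least 1 UMI was found in 43.8% (40.0 to 47.7) of mesenchymal cells, at a median depth of 1627 UMIs. The 13 endothelial-like cells were like the mesenchyme in this, with 8 of 13, 61.5% (31.6 to 86.1), at a median of 1590 UMIs and 285 CPM (130 to 541), though 1 was positive. Of the other 117 cells outside the mesenchyme, 5 had a UMI, 4.27% (1.40 to 9.69), at a median of 1698.

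Within the mesenchyme, fibroblast-like cluster 2 led. It carried Cxcl12 at 770 CPM (670 to 879), and 27 of its 44 cells were positive. Its leading genes included Mfap5, Clec3b and Col14a1, genes of connective tissue fibroblasts. Fibroblast-like cluster 10, led by Dlk1 and Ly6a and also high in Mfap5 and Clec3b, had 171 CPM (68.6 to 351) and 1 positive cell of 31, so the name alone did not go with a high level. Unnamed clusters 14 and 0 followed at 585 and 568 CPM. Cluster 0 was led by Dio3, an enzyme that inactivates thyroid hormone, with Fmod and Col9a1. The osteoblast or cementoblast-like clusters spread widely, with 448 CPM in cluster 3, led by the collagenase gene Mmp13, and 265 CPM in cluster 1. Clusters 8 and 16, led by the bone matrix gene Spp1, had 108 and 128 CPM. The level of cluster 3 rests largely on a few shallow cells. Of its 113 Cxcl12 UMIs, cells of 1590, 1683 and 1925 total UMIs gave 15 each. Cells of 1823, 1296 and 1727 gave 14, 11 and 11. The level without them was not computed. In order of level, the intervals of the 5 highest clusters overlap those of their neighbours.

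Clusters 11, 18 and 23 stood apart by depth, with medians from 20901 to 23838 UMIs. They held 53 of the 156 positive cells, or 34.0%, and 57.3% of the positive group's UMIs, against 11.6% of the negative group's. Their Cxcl12 levels were 313, 263 and 294 CPM, under that of cluster 2. Sums over the positive group therefore describe these deep cells first, and their part in each ratio is given below. At the low end, cluster 9, led by histone genes with Fgf3 and Dkk1, had 21.3 CPM and mural-like cluster 24 had 13.1 CPM. Unnamed cluster 28, whose best-scoring list was also mural and whose leading genes included Rgs5, had 494 CPM (293 to 782). Of its 11 cells, 6 were positive, so mural markers alone did not go with a low level. In cluster 22, led by Coch and Smpd3, 0 of 15 cells had a Cxcl12 UMI.

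**Figure D2:**
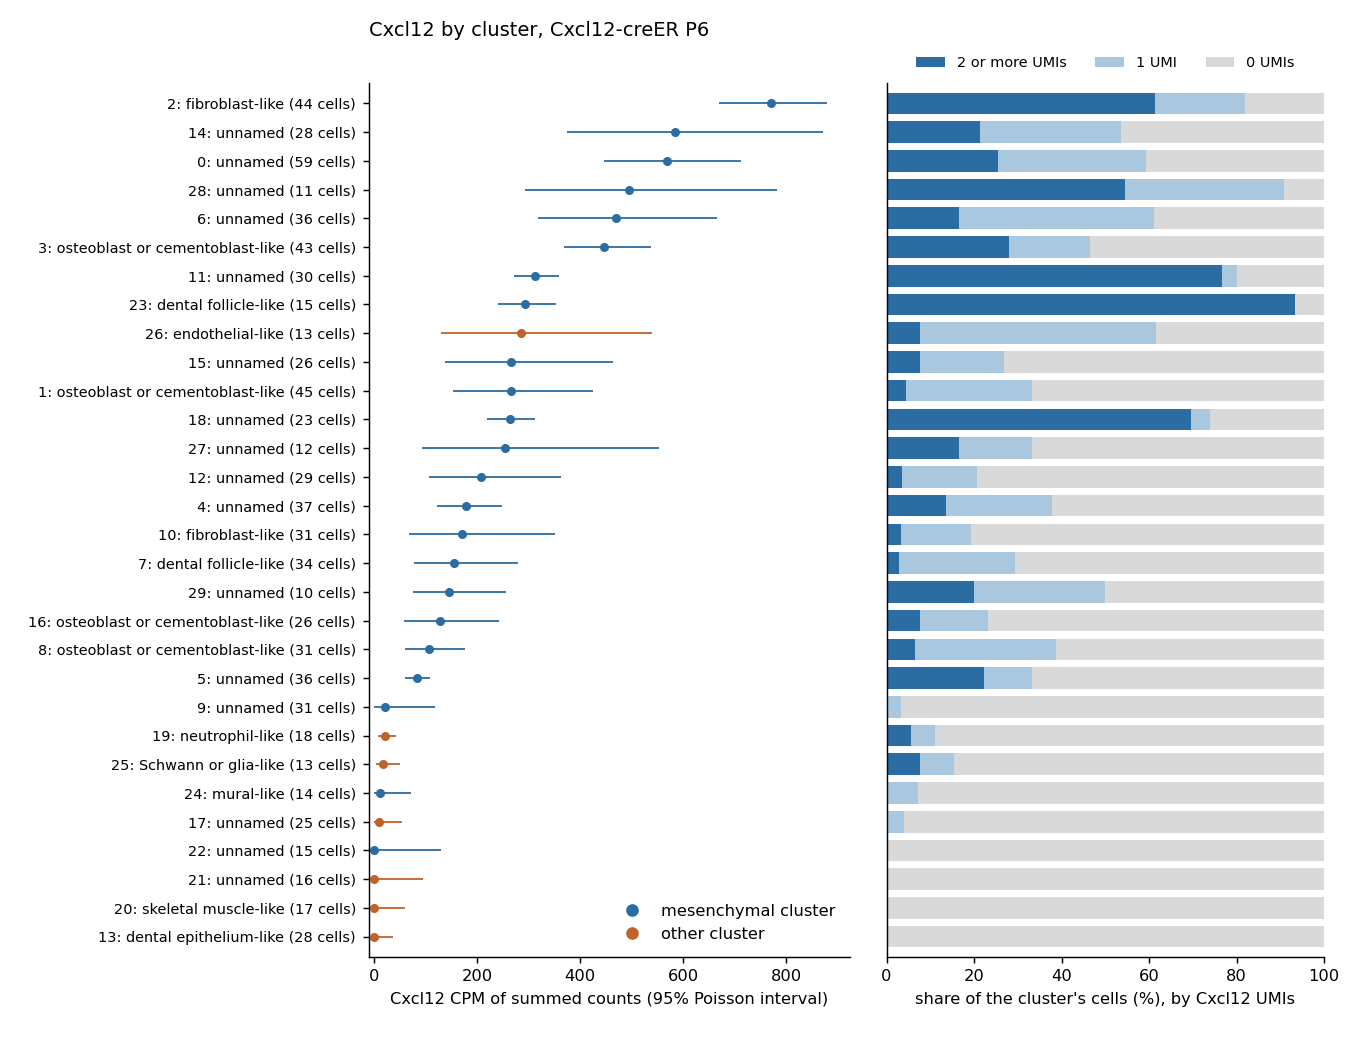
Left, Cxcl12 CPM of each cluster with its 95% Poisson interval, blue for mesenchymal and orange for other clusters. Right, the share of its cells with 2 or more, 1 or 0 Cxcl12 UMIs. Cluster 2 is highest at 770 CPM, and epithelium-like cluster 13 is at 0.

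Summed over all kept cells, 7358 genes besides Cxcl12 had enough counts to compare. With ratios as log2 of CPM plus 1, 411 of them, 5.59%, were at least 2-fold higher in positive cells, and 418, 5.68%, at least 2-fold lower. The median gene stood at 0.03. Genes for connective tissue matrix and for secreted signals led the higher side. Genes of glia, basophils, neutrophils, macrophages and epithelium led the lower side. Each of these called genes had a counting interval that left out equal levels. Such an interval holds neither the spread between cells nor that between animals, which was not measured here. It therefore lends the calls no support beyond counting.

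Of the 12 highest ratios, 11 are described here, and most drew the larger part of their UMIs from cluster 2 or from the deep clusters. Tnxb, a tenascin of loose connective tissue, had 110 UMIs in 20 positive cells and 9 UMIs in negative cells, 50.4 against 4.60 CPM and 10.96-fold higher (5.57 to 24.6). Mfap5, a microfibril protein, was at 253 against 40.4 CPM, 6.27-fold higher (4.94 to 8.04). Clec3b, which encodes tetranectin, was at 132 against 23.5 CPM, 5.60-fold higher (4.09 to 7.82). Cluster 2 supplied 93.6%, 97.6% and 99.3% of the positive group's UMIs of these 3 genes. Without cluster 2 their log2 ratios turned from 3.20, 2.62 and 2.44 to -0.31, -0.87 and -2.73.

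C1qtnf3, a secreted relative of adiponectin, Fndc1 and the elastin gene Eln took 73.1%, 48.9% and 78.5% of their positive UMIs from cluster 2. C1qtnf3 was 9.09-fold higher (5.86 to 14.8), but 1 cell gave 45.7% of its UMIs. Without that cell its log2 ratio went from 3.08 to 2.22, and without cluster 2 to 1.42. Eln was at 256 against 53.7 CPM, in 68 of 156 positive and 48 of 491 negative cells, and its log2 ratio of 2.23 went to 0.91 without cluster 2. Fndc1 stayed at 1.53.

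The other group came from clusters 11, 18 and 23. Bmp3, which encodes a BMP family member that counters bone-forming BMPs, was at 354 against 80.7 CPM, 4.39-fold higher (3.69 to 5.24). Hhip, a hedgehog target that binds and restrains hedgehog ligands, was at 203 against 39.9 CPM, 5.08-fold higher (3.99 to 6.55). The deep clusters supplied 89.5% and 87.3% of the positive UMIs of these genes. Without them the log2 ratio of Bmp3 went from 2.12 to 0.19 and that of Hhip from 2.32 to 0.58. Hsd11b2, which inactivates glucocorticoid, had 91.1% of its UMIs there, with 46.4% in 1 cell, and went from 2.36 to 0.79. Dio3 (5.74-fold higher, 4.25 to 7.90) held 77.2% there and stayed at 1.52.

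Ntrk3, the neurotrophin-3 receptor gene, kept its ratio without cluster 2 and without the deep clusters, though the deep clusters held 59.7% of its positive UMIs. Of these UMIs 19.3% came from 1 cell, and without that cell the log2 ratio was 2.24. Neutrophil-like cluster 19, with 1 positive cell, carried Ntrk3 at 69.3 CPM. The gene had 119 UMIs in 37 positive cells and 17 UMIs in 9 negative cells, 54.5 against 8.69 CPM and 6.28-fold higher (3.76 to 11.1). Its log2 ratio of 2.52 was 2.73 without cluster 2, 2.95 without the deep clusters, 2.08 within clusters and 1.82 in mesenchymal clusters alone. With cells thinned to 1000 UMIs it was 0.22, as against 0.15 for Hhip and 2.73 for Eln.

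**Figure D3:**
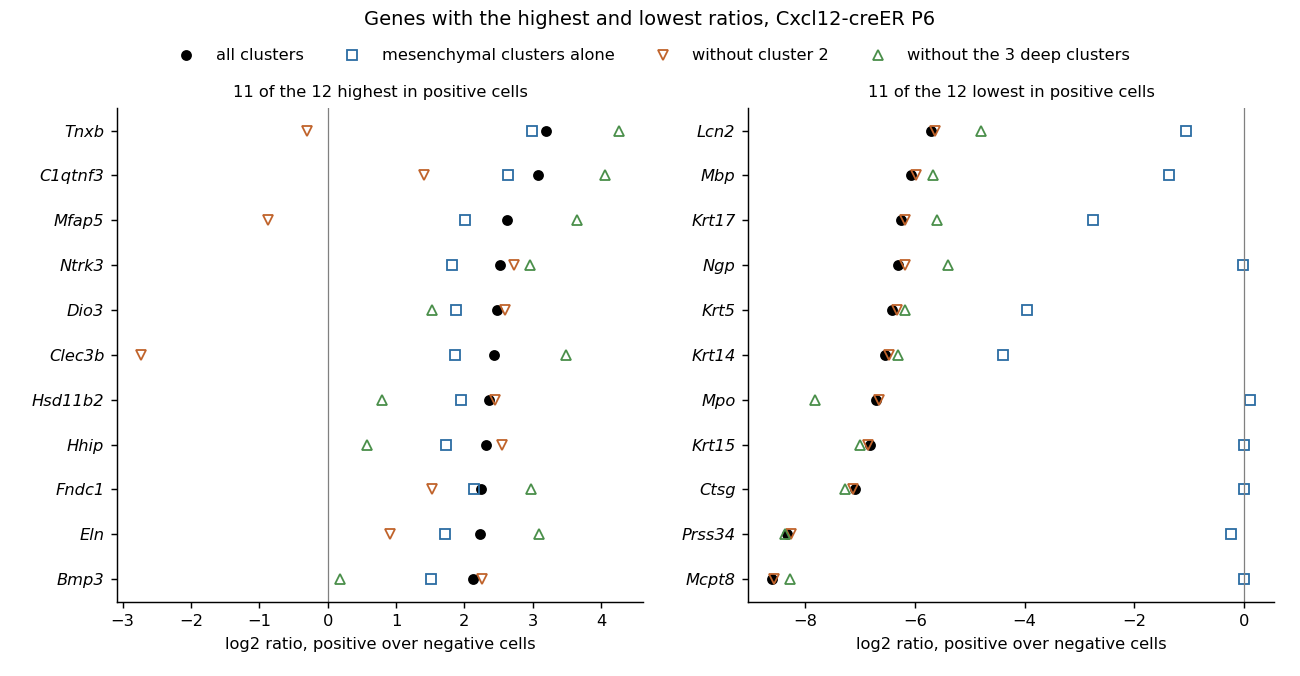
Log2 ratio of positive over negative cells for 11 of the 12 highest genes (left) and 11 of the 12 lowest (right), over all clusters, in mesenchymal clusters alone, without cluster 2 and without the 3 deep clusters. Tnxb, Mfap5 and Clec3b cross 0 without cluster 2, and Bmp3 comes to 0.19 without the deep clusters.

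Of the 12 lowest ratios, 11 are described here, marker genes of cells outside the mesenchyme. Mcpt8 and Prss34, proteases of basophils, had 1 and 4 UMIs in positive cells against 1108 and 1788 in negative cells. Ctsg, a granule protease, and Krt15, an epithelial keratin, had none in positive cells, at least 98.9-fold and 81.8-fold lower (3 counts in the group as the floor). Krt14, Krt5 and Krt17 had 3 UMIs each against 434, 393 and 354. The neutrophil genes Ngp, Lcn2 and Mpo and the myelin gene Mbp completed the set.

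Whole marker lists moved with these genes. All 8 dental epithelium markers compared were lower, with summed levels of 11.5 CPM in positive and 880 CPM in negative cells, and Krt15 and Cdh1 were at 0. All 6 macrophage markers compared were lower, 8.25 against 526 CPM, with C1qa, C1qc, Csf1r, Adgre1 and Mrc1 at 0 in positive cells. Neutrophil markers summed to 958 against 17185 CPM, and the neutrophil-like positive cell lies in the class with 5 to 9 Cxcl12 UMIs, where they reached 2924 CPM. Glia markers were at 52.3 against 1379 CPM and skeletal muscle markers at 3.21 against 119 CPM. Fewer cells of a type and less transcript per cell are not separated by such sums.

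Mesenchymal clusters were therefore also compared alone, 153 positive against 374 negative cells. Of 7140 genes, 244 (3.42%) were then at least 2-fold higher and 234 (3.28%) at least 2-fold lower. Of the 411 genes higher over all clusters, 201 were also higher here, as were 149 of the 418 lower ones. Ngp, Prss34 and Mpo had too few UMIs left there to compare, while Krt14 and Krt5 stayed at -4.40 and -3.95 on the log2 scale. Each of the 11 highest genes described stayed above 1, from 1.52 for Bmp3 to 2.99 for Tnxb.

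A stricter comparison set positive against negative cells of the same cluster, over the 23 clusters that held both. There 184 genes (2.5%) were 2-fold higher and 224 (3.04%) 2-fold lower, including 132 of the 411 and 175 of the 418. Of the 411, 391 stayed above 0. Tnxb stood at 3.66, Ntrk3 at 2.08 and Dio3 at 2.09, whereas Mfap5, Clec3b, Eln, Hhip and Bmp3 came to between 0.31 and 0.61. Levels of those 5 genes thus differed mainly between clusters, and levels of the first 3 also inside them.

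Inside cluster 2, 27 positive cells were set against 8 negative cells. Depth was not alike, at 1012 to 43929 UMIs in the positive and 1267 to 11625 in the negative cells. The deepest positive cells therefore weigh most in these sums. Of 196 named genes, 16, Cxcl12 among them, had a ratio interval above 1 and 16 below 1. Most of these genes were named by their ratios in these same cells, so the counts only describe them. The share over all genes was not computed. Cluster 2 supplied 93.6% of the positive group's UMIs of Tnxb and of Pi16, and 98.2% of those of Ccn3. High values of such genes here are thus partly built in, as they are for genes named through the deep clusters below. Tnxb had 103 UMIs against 0. The WNT and growth factor regulator gene Ccn3 had 107 against 1, Pi16, a marker of fibroblasts around vessels, 88 against 1, and C1qtnf3 163 against 1. Mfap5 had 539 against 54 UMIs, a log2 ratio of 0.33 with a ratio interval of 0.95 to 1.70. The interval for Mfap5 includes equal levels, whereas those for Tnxb, C1qtnf3, Ccn3 and Pi16 lie above it. The cell that gave most C1qtnf3 lies in this cluster with 102 of those 163 UMIs, and without it the count was 61 against 1. Over all clusters, 1 cell gave 76.1% of the positive group's UMIs of Ccn3, and 1 cell 46.8% of those of Pi16. Without its top cell, the log2 ratio of Ccn3 over all clusters went from 2.25 to 0.29. That of Pi16 went from 2.74 to 1.87. Lower in the positive cells of this cluster were the complement genes C1s1 (26 against 16 UMIs, log2 -2.28) and Serping1 (109 against 39, -1.50), and Gas1 (115 against 41, -1.50) and Igfbp5 (661 against 142, -0.77). These 4 genes were higher in positive cells over all clusters. The basement membrane gene Nid2 (-4.41), the matrix gene Tgfbi (-3.10) and the transcription factor gene Klf2 (-2.36) were also lower here. With 8 negative cells these ratios rest on few UMIs.

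Inside the deep clusters, 53 positive cells were set against 13 negative cells of like depth, with medians of 20564 and 20934 UMIs. Sfrp2, a secreted WNT antagonist gene, had 856 UMIs against 12, log2 3.67, and the matricellular gene Smoc2 592 against 14, log2 2.92. Hhip and Bmp3 stood at 2.93 and 2.26. Spp1 went the other way with 4 UMIs against 276. The groups were spread unevenly over the 3 clusters, since cluster 23 held 14 positive cells and 1 negative cell. Bmp3 and Hhip were highest there, at 1746 and 701 CPM, against 66.3 and 160 CPM in cluster 11 and 4.15 and 39.4 CPM in cluster 18, so their pooled ratios also reflect cluster membership. Inside cluster 11 (23 against 6 cells) Bmp3 stood at -0.04 and Hhip at 1.16. Sfrp2 and Smoc2 were higher inside cluster 11, at 5.48 and 1.71, and inside cluster 18 (16 against 6 cells), at 1.74 and 4.86. The 276 Spp1 UMIs were all in the negative cells of cluster 11, where positive cells had 1, and cluster 18 had none.

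The genes of the CXCL12 axis itself gave small counts. Cxcr4, its signalling receptor gene, was lower in positive cells, 16.0 against 42.4 CPM (2.64-fold, 1.76 to 4.05), and stood at 0.00 in mesenchymal clusters alone. Ackr3 had 28 and 36 UMIs, too few to compare. Of 12 haematopoietic niche factor genes compared, 3 were 2-fold higher and none lower, with a median of 0.76. Igf1, a growth factor, was at 937 against 264 CPM (3.55-fold, 3.22 to 3.91), Kitl, which encodes stem cell factor, at 29.3 against 11.8 CPM and Angpt1, which encodes a ligand of the vessel receptor TIE2, at 54.1 against 24.0 CPM. Kitl came to -0.02 on the log2 scale without cluster 2. In mesenchymal clusters alone 2 were higher and 1 lower, with a median of 0.42. Within clusters 0 were higher and 2 lower (0.20), and without cluster 2 the list median was 0.22. Lepr, the leptin receptor gene of marrow stroma, was at 43.5 against 22.5 CPM and did not reach 2-fold.

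Few other stromal chemokines were measurable. Ccl7, a monocyte attractant gene, had 69 UMIs against 2, but in 3 positive cells. Cxcl14 was at 102 against 49.6 CPM, and -0.31 on the log2 scale without the deep clusters. Complement genes had 3 of 6 higher and 1 lower, with a median of 1.05. C1s1 and C1ra, the proteases that start the classical pathway, were 3.58-fold (2.80 to 4.61) and 3.14-fold higher (2.35 to 4.26), and Serping1, which encodes their inhibitor, 2.83-fold higher (2.36 to 3.40). These 3 stayed above 1 in mesenchymal clusters alone.

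Growth factor lists are given over all clusters and then in mesenchymal clusters alone. The IGF axis had 5 of 10 genes higher and 1 lower, with a median of 0.80, and 3 higher and none lower in the mesenchyme. Igfbp5 and Igfbp3, which encode IGF-binding proteins, were at 4030 against 1257 CPM and 844 against 302 CPM. Igfbp2 was lower at 28.9 against 190 CPM and came to -0.08 in mesenchymal clusters alone. BMP ligand and antagonist genes had 5 of 10 higher, among them Gdf10, with 68 UMIs in 23 cells against 5 UMIs, and Fstl1, at 1035 against 445 CPM. The mesenchyme alone had 2 higher and 2 lower. Their response genes moved little, with 1 of 8 higher and a median of 0.44.

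TGF-beta genes had 4 of 12 higher and none lower, and 2 and 0 in the mesenchyme. Ccn2, a matrix gene induced by TGF-beta, was 3.30-fold higher (2.64 to 4.17), and Ltbp1, which holds latent TGF-beta in the matrix, 2.81-fold (2.12 to 3.77). Pdgfra, a receptor gene widely used as a stromal marker, was at 217 against 67.5 CPM and stayed at 1.09 in mesenchymal clusters alone, while the ligand gene Pdgfa was at 40.8 against 65.9 CPM. FGF genes had 3 of 9 higher and 2 lower over all clusters, and 1 of 11 higher and 4 lower in the mesenchyme. Fgf7 had 45 UMIs against 5. Fgf3, a ligand of the papilla, had 0 against 44 in 26 cells (at least 16.4-fold lower), and Dusp6, a feedback target of FGF signalling, was 2.84-fold lower (1.90 to 4.32).

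Of 10 secreted WNT antagonist genes, 5 were higher and 1 lower, with a median of 0.92. The mesenchyme alone had 1 higher and 1 lower (0.42), as did the comparison within clusters (0.28). Sfrp2 was at 668 against 161 CPM (4.14-fold, 3.66 to 4.69) and Sfrp1 at 350 against 118 CPM. Dkk1 was lower at 6.88 against 42.4 CPM and stayed so within clusters, at -2.32 on the log2 scale. Among ligands, Wnt9a had 51 UMIs against 9 and Wnt5a was at 203 against 91.98 CPM, and the list had 3 of 9 higher. In the mesenchyme 1 of 8 was higher and 1 lower, and the median within clusters was -0.22. Target genes such as Axin2, Lef1 and Notum had 0 of 8 past 2-fold either way, with a median of 0.01. In mesenchymal clusters alone that median was -0.49, with 2 genes lower. Notum, a secreted inactivator of WNT ligands, was among them, at -1.55.

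Hedgehog genes had 3 of 8 higher and a median of 0.74, which was 0.19 in mesenchymal clusters alone. Besides Hhip, Gas1 and Boc, which encode co-receptors, were past 2-fold. The target genes Ptch1 and Gli1 were at 451 against 237 CPM and 40.3 against 27.6 CPM, and stood at 0.33 and 0.11 in mesenchymal clusters alone. Retinoic acid genes had 3 of 9 higher and none lower, and 2 of 10 higher and 1 lower in the mesenchyme. Aldh1a2, which makes retinoic acid, was 3.56-fold higher (2.67 to 4.80) and Rarb, a receptor and target, 3.62-fold (2.36 to 5.74). Rarb stayed at 2.06 within clusters. In the Notch list, 1 of 7 was higher and 1 lower.

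Of the pathway lists, elastic fibre genes and small leucine-rich proteoglycans had the highest medians, followed by complement genes. Elastic fibre genes had 9 of 13 higher and none lower, with a median of 1.17. Besides Eln and Mfap5 these included Mfap4 (3.22-fold, 2.81 to 3.69) and Fbln5 (3.09-fold, 2.39 to 4.03). In mesenchymal clusters alone 5 of 13 were higher, with a median of 0.78. Without cluster 2 the median was 0.94. Within clusters it was 0.39, with 0 of 13 higher. Small leucine-rich proteoglycans, which bind and space collagen fibrils, had 5 of 9 higher and a median of 1.09. In mesenchymal clusters alone 3 of 9 were higher, with a median of 0.50. Within clusters 1 was higher and 1 lower, with a median of 0.28. Ogn was at 932 against 230 CPM (4.05-fold, 3.65 to 4.49) and Aspn at 268 against 70.5 CPM, while Lum was at 983 against 986 CPM.

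Collagens were mixed, with 6 of 23 higher and 4 lower, and 4 of 20 and 2 in the mesenchyme. Col1a1, the main bone and dentin collagen gene, was at 6949 against 6245 CPM, and Col3a1, its partner in soft connective tissue, at 5331 against 2334 CPM. Col14a1, a fibril-associated collagen, was 3.42-fold higher (2.64 to 4.47), and 0.46 on the log2 scale without cluster 2. Matricellular genes had 7 of 16 higher, led after Tnxb and Ccn3 by Smoc2, 346 against 80.2 CPM. Of the Ccn3 UMIs in positive cells, 76.1% came from 1 cell. Smoc2 stayed above 1 in mesenchymal clusters alone (1.77), within clusters (1.61), without cluster 2 (2.14) and without the deep clusters (1.07). In mesenchymal clusters alone 4 of the 16 matricellular genes were higher, and within clusters also 4. Matrix proteases and inhibitors had 8 of 19 higher, and the extracellular protease gene Adamts9 led at 3.41-fold (2.53 to 4.67). In mesenchymal clusters alone 3 of 19 were higher, with a median of 0.42. Within clusters 0 were higher, with a median of 0.15.

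Transcription factor genes of the craniofacial mesenchyme had 9 of 27 higher and none lower, with a median of 0.79. Osr1 had 81 UMIs in 21 cells against 12 in 9 cells, and went from 2.42 to 0.80 without cluster 2. Dlx1 was 2.57-fold higher (1.81 to 3.71). Prrx1 and Twist1, broad mesenchymal genes, did not reach 2-fold. In mesenchymal clusters alone the list median was 0.19, with 3 of 27 higher.

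Bone matrix genes were on the lower side. Of 12 mineralisation genes compared, 6 were lower and none higher, with a median of -0.85. Spp1 (osteopontin) was at 92.6 against 828 CPM (8.95-fold lower, 7.72 to 10.4), Bglap (osteocalcin) at 17.0 against 215 CPM (12.7-fold, 9.03 to 18.2), and Dmp1, a gene of osteocytes and odontoblasts, had 3 UMIs against 72. Runx2, Sp7 and Alpl, genes of earlier bone-forming cells, were at 201 against 121, 80.2 against 60.3 and 179 against 99.1 CPM, and none reached 2-fold. In mesenchymal clusters alone 7 of 12 were lower, with a median of -1.42. Within clusters the median was -0.22, with Spp1 at -1.92 and Bglap at 0.01. With 100 CPM and 100 UMIs required, the genes left had a median of 0.26.

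Proliferation genes were lower as well. Of 20 cell cycle genes, 7 were lower and none higher, with a median of -0.75. Mki67 was at 48.6 against 186 CPM, with UMIs in 14 of 156 positive and 65 of 491 negative cells, and Cenpf at 49.96 against 193 CPM. In mesenchymal clusters alone 7 of 20 were still lower. Within clusters the median was 0.01, and without the deep clusters it was also 0.01.

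Immediate early, stress and secretory pathway genes hardly differed, while antigen presentation and haemoglobin genes did differ. Immediate early and stress genes, which respond to tissue dissociation, had 0 of 17 past 2-fold and a median of 0.22. Secretory pathway genes had 0 of 14 and a median of 0.20. Glycolysis and hypoxia genes had 1 of 12 lower and a median of -0.47. Antigen presentation genes had 4 of 9 lower, led by H2-K1 at 39.9 against 166 CPM, and 0 of 6 in mesenchymal clusters alone. Haemoglobin genes were among the higher ones, with Hbb-bs at 89 UMIs in 14 positive cells and 8 UMIs in 8 negative cells. Of those 89 UMIs 48.3% came from 1 cell, and without it the log2 ratio went from 3.04 to 2.14. In Cxcl12-GFP P6 and at P25 Hbb-bs was lower in positive cells, at -4.42 and -1.28. Whether free RNA from red cells plays a part was not tested. Amelx, the enamel gene used in choosing cells, was at 491 against 706 CPM.

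**Figure D4:**
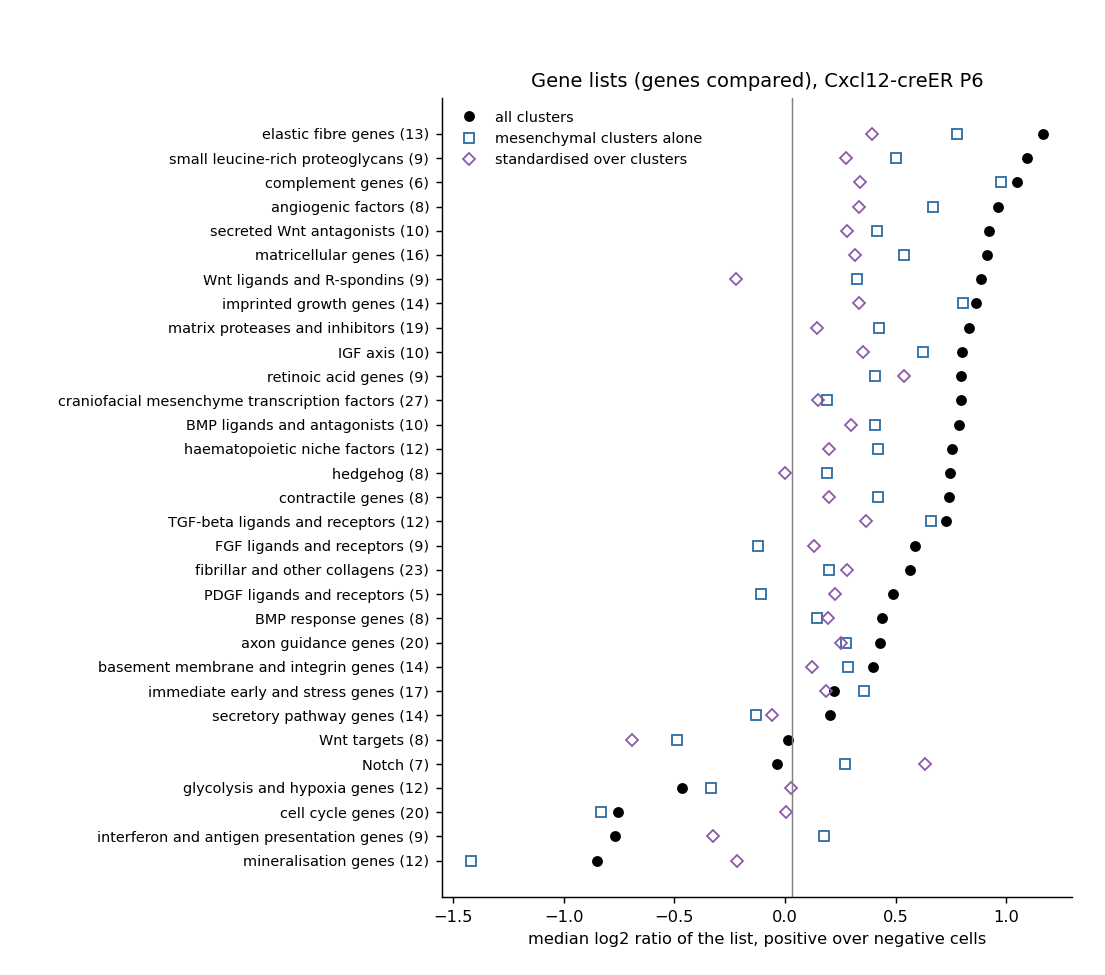
Median log2 ratio of each gene list (number of genes compared in parentheses) over all clusters, in mesenchymal clusters alone and standardised over clusters. The grey line is the median of all genes, 0.03. Of the lists drawn, elastic fibre genes are highest at 1.17 and mineralisation genes lowest at -0.85 over all clusters. Keratins, at -6.33, and lists with few genes are not drawn.

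The reporter followed the transcript in part. tdTomato had 116 UMIs in positive cells and 52 in negative cells, 53.2 (43.9 to 63.8) against 26.6 CPM (19.8 to 34.8). Cells with 1 Cxcl12 UMI were at 64.4 CPM (45.4 to 88.8). A tdTomato UMI was found in 41.7% of positive, 18.1% of single-UMI and 7.54% of negative cells. After thinning to 1000 UMIs these shares were 9.62% (5.48 to 15.4), 8.05% (4.23 to 13.6) and 1.22% (0.450 to 2.64). Negative cells outside the mesenchyme had 15 tdTomato UMIs, 20.8 CPM, although the sort was for tdTomato. At equal depth, cells with Cxcl12 thus showed the reporter more often, and single-UMI cells stood with the positive cells. The intervals of these 2 groups overlap.

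More Cxcl12 UMIs went with more depth. Median depth was 2116 UMIs in cells with 2 Cxcl12 UMIs, 3331 with 3 to 4, 18668 with 5 to 9 and 24161 with 10 or more. The last class was not all deep. It also held some cells of cluster 3 with 1296 to 1925 total UMIs and 11 to 15 of Cxcl12, which raise its summed level. Summed Cxcl12 levels over these classes were 293, 343, 376 and 640 CPM. Dental follicle markers summed to 2506 CPM in negative cells, 2774 with 1 UMI, 4717 with 2, 7797 with 3 to 4, 6221 with 5 to 9 and 6295 with 10 or more, so the level did not go on rising. Bone-forming markers went from 1811 CPM with 0 and 2267 with 1 to 1300.4, 1080.0, 621 and 574 CPM. Dental epithelium markers went from 880 CPM with 0 to 167 with 1 and 28.2 with 2. Cells with 1 UMI stood with negative cells for bone-forming markers and between the groups for epithelial ones, and 93.3% of them lay in mesenchymal clusters.

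Cxcl12 was also followed across the 19 clusters of at least 20 cells. The genes with the most similar pattern (Pearson correlation of log2 of CPM plus 10) were Ctsk at 0.92, Fxyd1 and Copz2 at 0.89, Maged2 and Selenom at 0.87, and Ogn, Bgn and Mxra8 at 0.84. These points share a library and differ in depth, and the correlations are a description. Clusters 13 and 17, which were not counted as mesenchymal, are among them, with Cxcl12 at 0 and 9.88 CPM and Ctsk at 10.1 and 0 CPM. The correlations therefore partly restate the contrast of mesenchyme with other cells. They were not computed over mesenchymal clusters alone. Ctsk, a matrix-degrading protease, was at 230 against 107 CPM and Bgn, a proteoglycan, at 740 against 382 CPM. The 11 highest genes described followed Cxcl12 less closely, from 0.12 for Hhip to 0.49 for Dio3.

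The same rule was applied to the other libraries. It called 4070 of 7514 cells positive in Cxcl12-GFP P6 (54.2%) and 2106 of 5635 at P25 (37.4%), at median depths of 8305 and 15127 UMIs against 1629.5 here. After thinning to 1000 UMIs, cells with a Cxcl12 UMI made up 22.3% (21.4 to 23.3) and 18.3% (17.3 to 19.3), against 22.1% here. In Cxcl12-GFP P6, 37 of 6438 genes (0.575%) were 2-fold higher and 12 (0.186%) lower. At P25 these were 370 (5.73%) and 313 (4.84%) of 6462. In Cxcl12-GFP P6, 96.98% of negative cells lay in mesenchymal clusters, against 76.2% in Cxcl12-creER P6 and 76.4% at P25.

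Of the 11 highest genes described, 7 could be compared in Cxcl12-GFP P6, and their log2 ratios lay between -0.38 (Bmp3) and 0.53 (Fndc1). At P25, 7 could be compared. Dio3 stood at 4.52, Clec3b at 2.31 and Mfap5 at 1.68, Eln at 0.68 and Fndc1 at -0.32. C1qtnf3 and Bmp3 stood at -1.39 and -1.83. Niche factor genes had 0 of 10 higher in Cxcl12-GFP P6 and 9 of 12 at P25, with medians of -0.03 and 1.59. Mineralisation genes had medians of -0.30 and -0.92. Elastic fibre genes had 0 of 13 and 7 of 13 higher, with a P25 median of 1.21. Feature lists, sorts, depth and age differed between the libraries, and their part in these differences cannot be told apart.

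**Figure D5:**
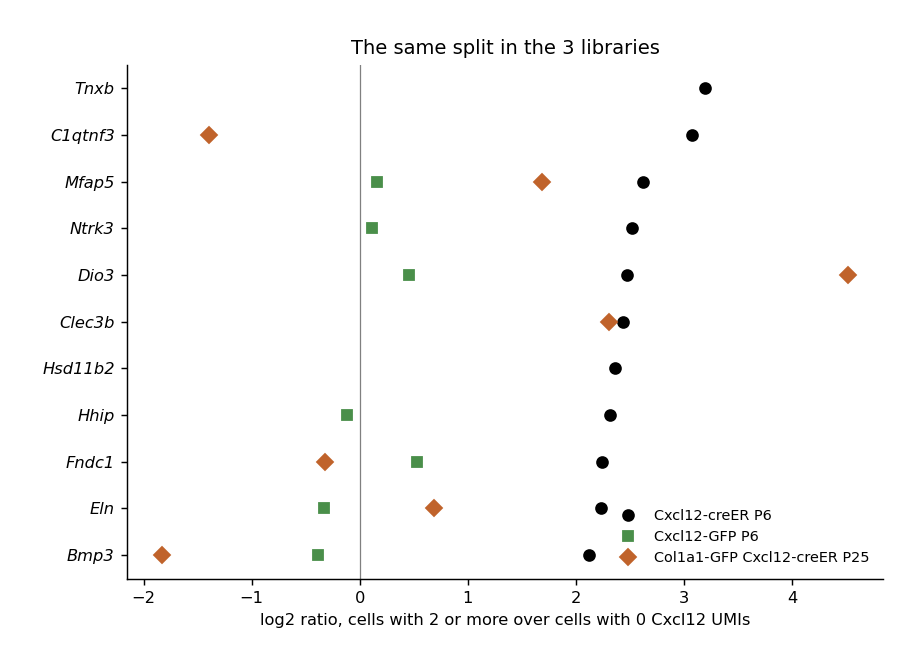
Log2 ratio of cells with 2 or more over cells with 0 Cxcl12 UMIs in each library for 11 of the 12 highest genes of Cxcl12-creER P6, shown where the gene had enough counts. Cxcl12-GFP P6 lies between -0.38 and 0.53, and P25 from -1.83 for Bmp3 to 4.52 for Dio3.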

How the data were processed

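Molars were dissociated enzymatically, sorted by fluorescence and run on the 10x platform, per the labels' protocols. The deposited matrices hold UMI counts per gene and barcode that the authors made with Cell Ranger (version 6.0.0 in the day 6 tdTomato library's header and 3.1.0 in that of P25, per the file headers) on mm10, per the submitters' processing notes. The members, gene lists and comparisons were chosen with earlier results of these data known.

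Counts were summed over positive and over negative cells and scaled to CPM. Genes with at least 20 CPM in either group and 30 UMIs over both were compared, as log2 of CPM plus 1, and called at 2-fold. Limits are exact 95% Poisson intervals for a level, conditional binomial intervals for a ratio and Clopper-Pearson intervals for a share. They treat UMIs as independent and so understate the error. The steps were tested on simulated data. No doublets were removed. Leaving out the 5 cells with the highest Scrublet doublet scores was an alternative. That number was set by an assumed rate of 0.8% per 1000 cells, and no doublets were called.

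Clusters used 2000 variable genes, 20 components, 10 neighbours and Leiden resolution 1.5 (scanpy 1.11.5, leidenalg 0.10.2). These settings and the thresholds for naming clusters were chosen after clusters had been seen, from markers fixed in a list. Within-cluster ratios are Mantel-Haenszel ratios over clusters. Genes were named by rule: Cxcl12 and reporters; the 12 highest and 12 lowest ratios with at least 50 CPM in the higher group, 50 UMIs and 10 cells; up to 4 per list with the largest ratio; and 8 genes most like Cxcl12 over clusters. Ribosomal, mitochondrial, haemoglobin and sex-linked genes and unnamed models were left out of the first ranking. Genes named beyond these (Col1a1, Col3a1, Lum, Runx2, Sp7, Alpl, Gli1, Prrx1, Twist1, Lepr, Pdgfa and others of the lists, and leading genes of clusters) were chosen after their values were seen. Coordinates are from GENCODE on GRCm38. Some genes that the rule names are not reported here.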

Additional observations from a re-analysis of the deposited data

Results flagged for a closer look

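Bmp3 and C1qtnf3 were higher in positive cells of Cxcl12-creER P6 and lower in positive cells of P25. Bmp3 had a log2 ratio of 2.12 in the first, where the deep clusters held 89.5% of its UMIs, and -1.83 in the second, at 47.7 against 172 CPM. C1qtnf3 had 3.08, with 45.7% of its UMIs in 1 cell, and -1.39, at 14.8 against 40.5 CPM. Each library is 1 sample, so the difference was not tested.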

How the results depend on the processing

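No paired analysis was possible because each group is cells of 1 library and no test was made. The share of positive cells, 19.6%, was 38.3% with 1 or more UMIs, 13.1% with 3 or more and 35.5% among cells of at least 2000 UMIs. The 411 higher and 418 lower genes became 88 and 263 with cells thinned to 1000 UMIs (3956 genes compared), 184 and 224 over clusters, 244 and 234 in mesenchymal clusters alone, 1270 and 1890 with no filter beyond 1 UMI, and 115 and 83 with 100 CPM and 100 UMIs. A pseudocount of 10 CPM gave 223 higher. Without the limit on enamel genes 911 were higher, with the median of all genes at 0.35, so ratios there are read against that shift. The medians of lists that changed sign were, with thinning, Wnt ligands (-1.13), BMP ligands (-0.05), contractile genes (-0.17) and antigen presentation genes (0.78). With every cell weighing the same the FGF median was -0.16, with no filter -0.36, in mesenchymal clusters alone -0.12 and with these standardised over depth -0.09. Antigen presentation genes were at 0.18 and 0.43 in the last pair. Over clusters Wnt ligands were at -0.22 and cell cycle genes at 0.01, and the latter also at 0.01 without the deep clusters. Mineralisation genes were at 0.26 with 100 CPM and 100 UMIs. Of single genes, Bmp3 was at -0.54 with thinning, Mcpt8 and Prss34 at 0.99 and 0.68 over clusters, Mpo at 0.11 and 0.45 in mesenchymal clusters without and with depth standardised, and Tnxb, Mfap5 and Clec3b at -0.31, -0.87 and -2.73 without cluster 2. The settings on mesenchymal and on deep clusters were chosen after seeing the data. Of 692 list medians under other settings, 596 moved little, 82 moved and 14 changed sign. Of 504 values of the highest and lowest genes, 468 kept direction and side of 2-fold, 28 came under 2-fold and 8 changed sign. Apart from what construction shows (fewer cells, genes or UMIs), the cause was not tested. Depth limits genes under 20 CPM, which were not compared.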
